A study of Mus musculus with 12 samples.

Results

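The 10 genes described here encode the enzymes, structural proteins, receptor, transporters and channel that pigment cells use to make melanin inside melanosomes. They were chosen by symbol: Tyr, Tyrp1 and Dct (melanin enzymes), Pmel and Mlana (melanosome matrix and its maturation), Gpr143 (a melanosome receptor), Oca2, Slc45a2 and Slc24a5 (transporters), and Trpm1 (a cation channel). Each symbol stood on 1 row of both deposited tables, so 10 of 55421 genes were followed in 12 RNA-seq libraries. The libraries came from B16F10 cells, a cultured mouse melanoma line that makes melanin, in 4 groups of 3. These were Bub1KO cells given 8 Gy of radiation, Bub1KO cells without treatment, vector control (VC) cells given 8 Gy, and VC cells without treatment. In Bub1KO cells the gene for the mitotic checkpoint kinase BUB1 was disrupted with CRISPR-Cas9, and the study asked how a lack of Bub1 changes the response to radiation. All groups are the same cell line grown in DMEM with serum. The guide, the number of Bub1KO lines and the time from irradiation to RNA extraction are not stated in the labels. Whether the 3 libraries of a group were grown apart is not stated either, so p-values measure the spread between these libraries, which may be technical. In bulk RNA, fewer cells with a transcript and less transcript per cell cannot be told apart.

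Melanin synthesis starts when tyrosinase (Tyr) oxidises tyrosine, and Dct and Tyrp1 act on later intermediates of the brown to black pigment. The pigment is laid down on fibrils of the protein PMEL inside melanosomes, whose pH, sodium and calcium are set by membrane transporters. MITF, a helix-loop-helix transcription factor, binds E-box sequences such as CATGTG and CACGTG and is the main known regulator of these genes in melanocytes and melanoma. SOX10 and PAX3 act with it, and the receptor MC1R signals to it.

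Each library held 19380726 to 33087366 reads in genes. Values below are normalized counts (reads divided by the authors' size factor of the library), and differences are on the log2(value + 1) scale with the standard error and the Benjamini-Hochberg adjusted p of limma over 14721 tested genes, called at an adjusted p under 0.05. Bub1 itself had 886, 989 and 1120 normalized counts in irradiated Bub1KO, against 1484, 1461 and 1507 in irradiated VC, and 1834, 1565 and 1588 in untreated Bub1KO, against 2752, 3185 and 2859 in untreated VC. Its RNA was present in Bub1KO but below VC in all libraries of the same treatment, with a log2 difference of -0.58 (SE 0.0797, limma adjusted p = 0.00019) after irradiation and -0.82 (SE 0.101, limma adjusted p = 0.003) without it. Replicate 1 of untreated Bub1KO stood apart from its group: the chi-square of its reads against the other 2 libraries was 54.0 and 50.3 per gene, where all other pairs within a group gave 5.89 to 19.1, and the median log2 gap of its GC-rich from its GC-poor genes was -0.70, where the other 2 libraries had 0.030 and 0.074. Some results on untreated Bub1KO are therefore also given without it, where so stated, and the rest use all libraries. Mitochondrial transcripts took 3.53% to 3.93% of reads in irradiated libraries and 2.31% to 2.93% in untreated ones.

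The melanocytic nature of the cells was checked on marker genes. All 10 genes passed the filter on low values, with 8 to 300698 reads per library, and Mitf (9977 to 13345 normalized counts) and Sox10 (4355 to 11893) were detected in every library. Markers of other cells were low in sum, apart from the Schwann cell and neural markers below, and moved with irradiation. The 10 leukocyte markers summed to 274 to 288 normalized counts in irradiated Bub1KO, 31.3 to 32.6 in untreated Bub1KO, 177 to 202 in irradiated VC and 35.3 to 37.3 in untreated VC, with Cd68 the most abundant. Of these, 3 had no read in any library (Adgre1, C1qa, Cd3e), and the 2 that were tested rose with irradiation in both genotypes. The 11 retinal pigment epithelium markers summed to 224 to 280.5 in irradiated Bub1KO, 146 to 161 in untreated Bub1KO, 217 to 222 in irradiated VC and 124 to 149.6 in untreated VC. Among them 3 had no read (Otx2, Rgr, Slc16a8), and 4 of the 5 tested rose with irradiation in both genotypes. The 10 keratinocyte markers summed to at most 59.0, with 4 at no read (Ivl, Krt1, Krt10, Lor) and the 1 tested higher with irradiation in both genotypes. The 10 fibroblast and endothelial markers, none without a read in all libraries, summed to 239 to 271 in irradiated Bub1KO, 178 to 206 in untreated Bub1KO, 348 to 362 in irradiated VC and 188 to 245 in untreated VC, and of the 3 tested 2 rose and 1 fell with irradiation in both genotypes. Between irradiated genotypes 1 leukocyte and 1 retinal pigment epithelium marker were higher in Bub1KO and 1 fibroblast or endothelial marker was lower. The 10 Schwann cell and neural markers summed to 30387 to 33517 in irradiated Bub1KO and 19018 to 26241 in untreated Bub1KO. In VC the sum was 26993 to 27406 with irradiation and 18902 to 20351 without it. Mbp, a myelin protein gene, was the most abundant, with a mean of 11821 normalized counts over all libraries. Of the 10 markers 7 were tested. These 7 counted 3 higher and 1 lower in irradiated Bub1KO against VC, 2 higher and 0 lower in untreated Bub1KO, 3 higher and 1 lower with irradiation in Bub1KO and 4 higher and 1 lower with irradiation in VC. Beside these marker counts, 14.3% of all tested genes were higher and 16.4% lower in irradiated Bub1KO against VC. In untreated Bub1KO the shares were 2.31% and 1.71%. With irradiation 25.4% of all tested genes rose and 23.9% fell in Bub1KO, and 27.6% rose and 25.8% fell in VC. The part of these markers in the results on the pigment genes was not tested.

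Promoter sequence was matched for 6 of the 10 genes in RefSeq's table (build GRCm38.p6, 250 bases before to 50 after each annotated start, 7 windows because Trpm1 has 2 starts): Tyr, Tyrp1, Dct, Oca2, Slc24a5 and Trpm1. Pmel, Mlana, Slc45a2 and Gpr143 were not matched. The windows are shown for the 3 enzymes and for Oca2 and Trpm1, the genes with the largest changes, 5′ to 3′ on the strand of the gene, with CATGTG on either strand (read from the other strand it is CACATG) and CACGTG in capitals.
Tyr chr7:87493463-87493762, minus strand: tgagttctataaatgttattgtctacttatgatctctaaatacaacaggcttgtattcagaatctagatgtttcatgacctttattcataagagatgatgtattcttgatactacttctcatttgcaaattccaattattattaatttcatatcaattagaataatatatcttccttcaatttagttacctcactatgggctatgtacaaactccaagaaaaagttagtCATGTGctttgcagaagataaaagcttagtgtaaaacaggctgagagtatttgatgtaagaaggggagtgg
Tyrp1 chr4:80833963-80834262, plus strand: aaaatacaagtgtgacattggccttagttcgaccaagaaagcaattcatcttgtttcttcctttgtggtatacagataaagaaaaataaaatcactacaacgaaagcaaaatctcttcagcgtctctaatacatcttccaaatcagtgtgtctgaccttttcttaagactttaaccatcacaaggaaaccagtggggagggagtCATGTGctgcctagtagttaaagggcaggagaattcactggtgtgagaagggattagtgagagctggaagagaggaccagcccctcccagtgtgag
Dct chr14:118052197-118052496, minus strand: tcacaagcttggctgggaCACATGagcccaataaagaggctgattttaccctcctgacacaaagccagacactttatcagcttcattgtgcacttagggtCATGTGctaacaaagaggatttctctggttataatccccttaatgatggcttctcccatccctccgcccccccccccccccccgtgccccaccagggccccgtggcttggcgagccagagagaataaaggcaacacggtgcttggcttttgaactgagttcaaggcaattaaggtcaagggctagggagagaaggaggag
Oca2 chr7:56239509-56239808, plus strand: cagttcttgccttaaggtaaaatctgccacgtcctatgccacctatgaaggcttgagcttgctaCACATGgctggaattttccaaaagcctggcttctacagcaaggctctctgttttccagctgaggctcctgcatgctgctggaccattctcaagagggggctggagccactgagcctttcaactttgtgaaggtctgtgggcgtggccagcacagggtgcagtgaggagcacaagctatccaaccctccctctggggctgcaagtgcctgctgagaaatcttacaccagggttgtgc
Trpm1 chr7:64153585-64153884, plus strand: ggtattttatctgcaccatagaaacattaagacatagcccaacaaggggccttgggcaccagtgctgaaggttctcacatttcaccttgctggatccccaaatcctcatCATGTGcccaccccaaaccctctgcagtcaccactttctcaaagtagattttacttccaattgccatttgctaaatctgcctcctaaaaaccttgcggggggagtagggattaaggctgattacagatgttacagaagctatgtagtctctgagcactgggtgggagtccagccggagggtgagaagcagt

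CATGTG on either strand stood in all 7 windows, against 14.15% of the 32851 promoter windows of the table. Counted on the strand of the gene, with -1 the base before the start, its first base lay at -21 in Tyr, -46 in Tyrp1, -232 and -150 in Dct, -186 in Oca2, -13 in Slc24a5 and -141 at the first Trpm1 start. At the second Trpm1 start (chr7:64185209-64185508) a CATGTG lay at base 37 from the start and a CACGTG at -229, and no other window of these genes held CACGTG, which 7.15% of all windows hold. The longer word TCATGTG, which contains CATGTG, was found in Tyr, Tyrp1, Dct (both sites), Slc24a5 and the first Trpm1 window, against 3.772% of all windows. The 11-base word AGTCATGTGCT was chosen as the longest stretch around CATGTG that the Tyr and Tyrp1 windows share. Its presence in both was therefore fixed by the choice. With these windows counted, 7 windows of the whole table held it, or 0.0213%. A match describes letters, not binding.

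The transcripts differed in level by several orders of magnitude. Per kb of annotated exon, the mean of Pmel was highest in all 4 groups, though in untreated VC its libraries overlapped those of Mlana, at 58984 ± 2174 normalized counts per kb in irradiated Bub1KO, 53596 ± 5462 in untreated Bub1KO, 45903 ± 1240 in irradiated VC and 40019 ± 1054 in untreated VC (SD, n = 3 each). Oca2 was lowest, at 68.7 ± 0.862 normalized counts per kb in irradiated Bub1KO, 4.83 ± 0.418 in untreated Bub1KO, 27.9 ± 1.46 in irradiated VC and 3.26 ± 0.611 in untreated VC (SD, n = 3 each). Dct, Mlana and Tyrp1 followed Pmel, Slc45a2 and Slc24a5 came next, and Gpr143, Tyr, Trpm1 and Oca2 made up the low end.

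Places within this order moved with genotype and treatment. Dct stood 2nd in both Bub1KO groups and 4th in both VC groups, although its libraries overlapped those of Mlana in untreated Bub1KO and irradiated VC and those of Tyrp1 in untreated VC. After irradiation Slc45a2 lay above Slc24a5 in both genotypes, with libraries that overlapped in irradiated Bub1KO and did not overlap in irradiated VC, and without irradiation it lay below Slc24a5 with no overlap. Tyr stood 7th in irradiated Bub1KO, where it overlapped Gpr143, and 8th in the other groups, below Gpr143 with no overlap. The order depends on the length used. Over the longest protein-coding transcript, a length chosen after the values were seen, Dct (2202 bases, against 5895 bases of all annotated exon) was 1st in all 4 groups, and over the longest transcript of any kind it was 1st in 3 groups and 2nd in irradiated VC. Over either of these lengths Slc24a5 lay above Slc45a2 in irradiated Bub1KO with no overlap (8153 ± 211 against 6933 ± 468 normalized counts per kb). Tyr was then 8th in irradiated Bub1KO and 9th in irradiated VC, where it overlapped Trpm1 in the 8th place, and Mlana lay above Pmel in untreated VC with overlapping libraries. Oca2 was last over each of the 3 lengths.

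**Figure D1:**
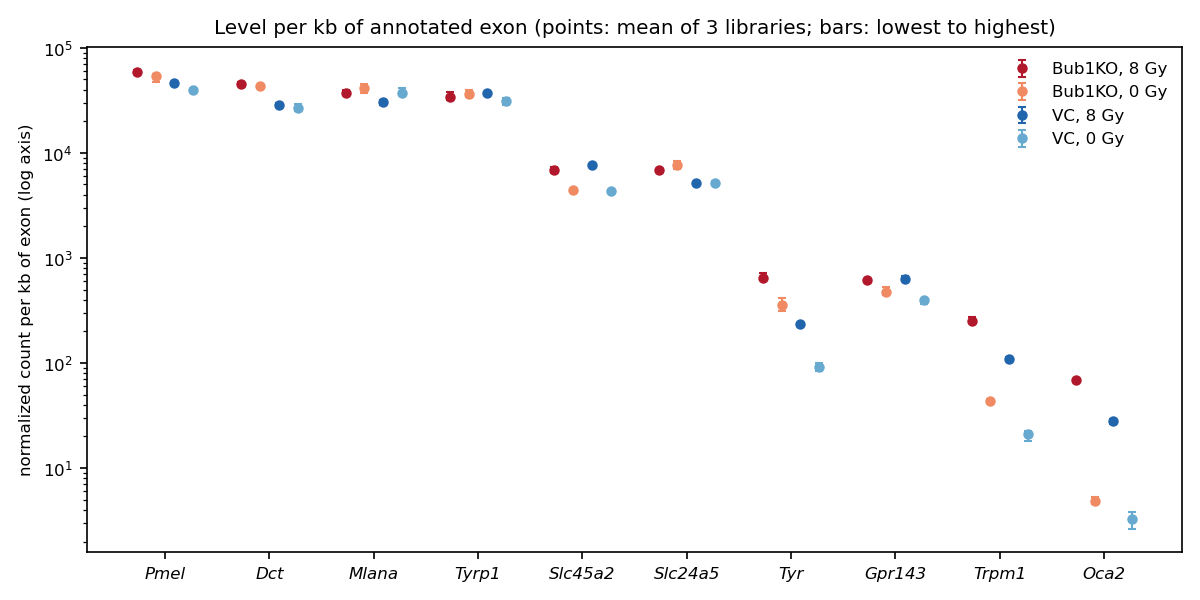
Mean normalized count per kb of annotated exon of each gene (y axis, log scale) in 4 groups, with bars from the lowest to the highest of 3 libraries. Pmel has the highest mean in each group, overlapping Mlana in VC without irradiation, and Oca2 the lowest, and Tyr, Trpm1 and Oca2 show the widest spacing between groups.

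Together the 10 genes took 2.46%, 2.53% and 2.45% of all reads in genes in irradiated Bub1KO, against 1.96%, 1.85% and 1.93% in irradiated VC. Without irradiation the share was 2.28%, 2.23% and 2.22% in Bub1KO, against 1.63%, 1.59% and 1.61% in VC. Every Bub1KO library lay above every VC library, also across treatments, and the exact 95% binomial interval of each share was at most 0.0064 percentage points to either side, for counting error only. Dct alone took 1.17%, 1.17% and 1.08% of reads in irradiated Bub1KO and 0.755%, 0.682% and 0.720% in irradiated VC.

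Within a library, ratios of these transcripts need no scaling between libraries. Tyr had 15.9, 15.98 and 19.9 reads per 1000 Dct reads in irradiated Bub1KO, against 9.47, 10.5 and 9.49 in irradiated VC, and 11.2, 9.73 and 8.57 in untreated Bub1KO, against 4.09, 4.81 and 3.48 in untreated VC. Trpm1 had 13.4, 14.5 and 13.8 reads per 1000 Dct reads in irradiated Bub1KO, against 9.38, 9.43 and 9.62 in irradiated VC, and 2.53, 2.52 and 2.40 in untreated Bub1KO, against 2.08, 1.79 and 1.97 in untreated VC. Both ratios were higher in all Bub1KO than in all VC libraries of the same treatment.

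**Figure D2:**
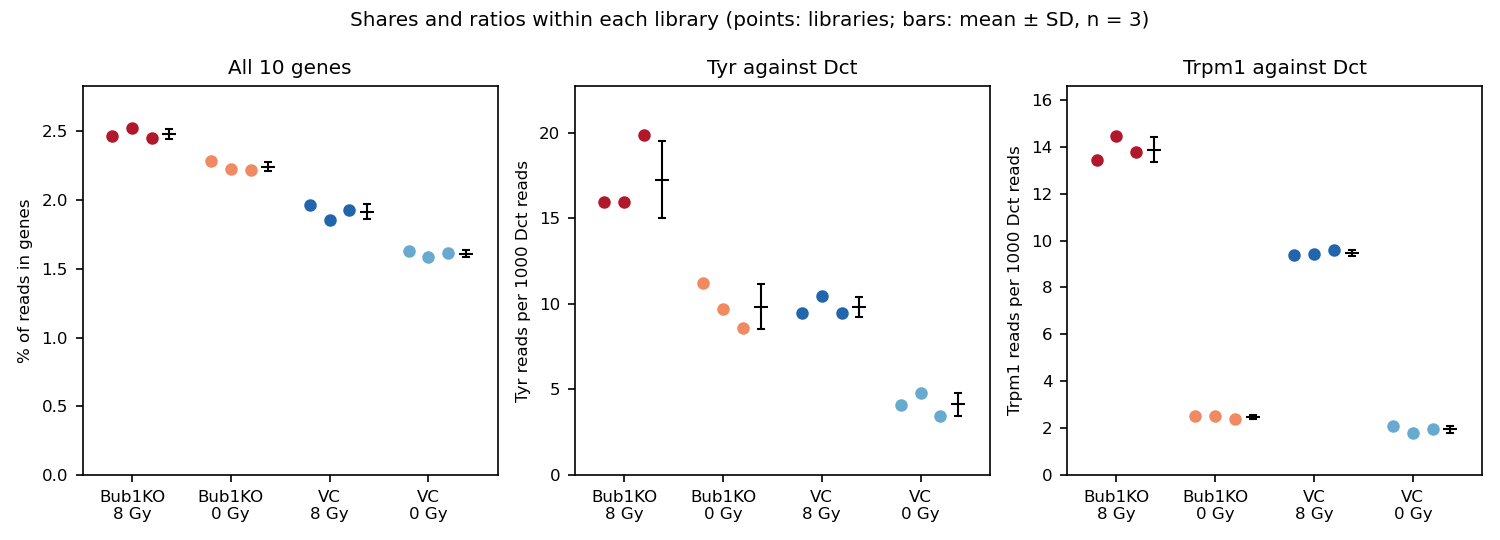
Share of reads in genes taken by the 10 genes (left, %), Tyr reads per 1000 Dct reads (middle) and Trpm1 reads per 1000 Dct reads (right) in each library, by group, with the mean ± SD of 3 libraries. The share is 2.22% to 2.53% in Bub1KO and 1.59% to 1.96% in VC, and the Trpm1 ratio reaches 14.5 in irradiated Bub1KO.

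Between the genotypes after irradiation, 7 of the 10 genes rose in Bub1KO and 0 fell (Tyr, Oca2, Trpm1, Dct, Slc24a5, Pmel and Mlana), where 14.3% of all tested genes rose and 16.4% fell. Their libraries lay above all VC libraries, as did 22.1% of all tested genes, and 0 of the 10 lay below, against 22.6%. The median difference of the 10 genes was 0.39 on the log2 scale, against -0.01 over all tested genes. With no filter on low values 5 of 10 rose, Pmel and Mlana no longer passing, where 6.81% of all tested genes were called in either direction. Without irradiation 4 of 10 rose in Bub1KO and 0 fell (Tyr, Trpm1, Dct and Slc24a5), where 2.31% of all tested genes rose and 1.71% fell, and in 8 of 10 genes every Bub1KO library lay above every VC library, against 12.7% of all tested genes, and 0 lay below, against 12.9%. The median difference was 0.48, against -0.01 over all tested genes, and without replicate 1 of untreated Bub1KO 5 of 10 rose, Pmel being the fifth, while 18.6% of all tested genes were called in either direction. The authors' deposited tables, whose fold changes run VC over Bub1KO, called the same 7 genes after irradiation (18.1% of all genes with an adjusted p were called in that table) and 6 of 10 without irradiation (13.1%), adding Pmel and Gpr143.

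Within a genotype, irradiated against untreated, 5 of 10 genes rose in Bub1KO and 0 fell (Oca2, Trpm1, Tyr, Slc45a2 and Gpr143), where 25.4% of all tested genes rose and 23.9% fell. In VC the same 5 genes and Tyrp1 rose and Mlana fell, where 27.6% of all tested genes rose and 25.8% fell. The irradiated libraries lay above the untreated ones without overlap in 6 of 10 genes in Bub1KO and below in 0, against 29.1% and 25.8% of all tested genes, and in 7 of 10 in VC, against 33.6%, while Mlana lay below, as did 31.8% of all tested genes in VC. The median change of the 10 genes was 0.26 in Bub1KO and 0.46 in VC, against 0.03 and 0.02 over all tested genes. Without replicate 1 of untreated Bub1KO the same 5 genes rose and 0 fell in Bub1KO, and in VC Pmel was added to those that rose, where 51.4% of all tested genes were called in Bub1KO and 61.3% in VC in either direction, against 49.4% and 53.4% with all libraries. Each of the 4 comparisons shares a group of libraries with 2 others, so their values are set side by side and not counted as separate evidence.

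**Figure D3:**
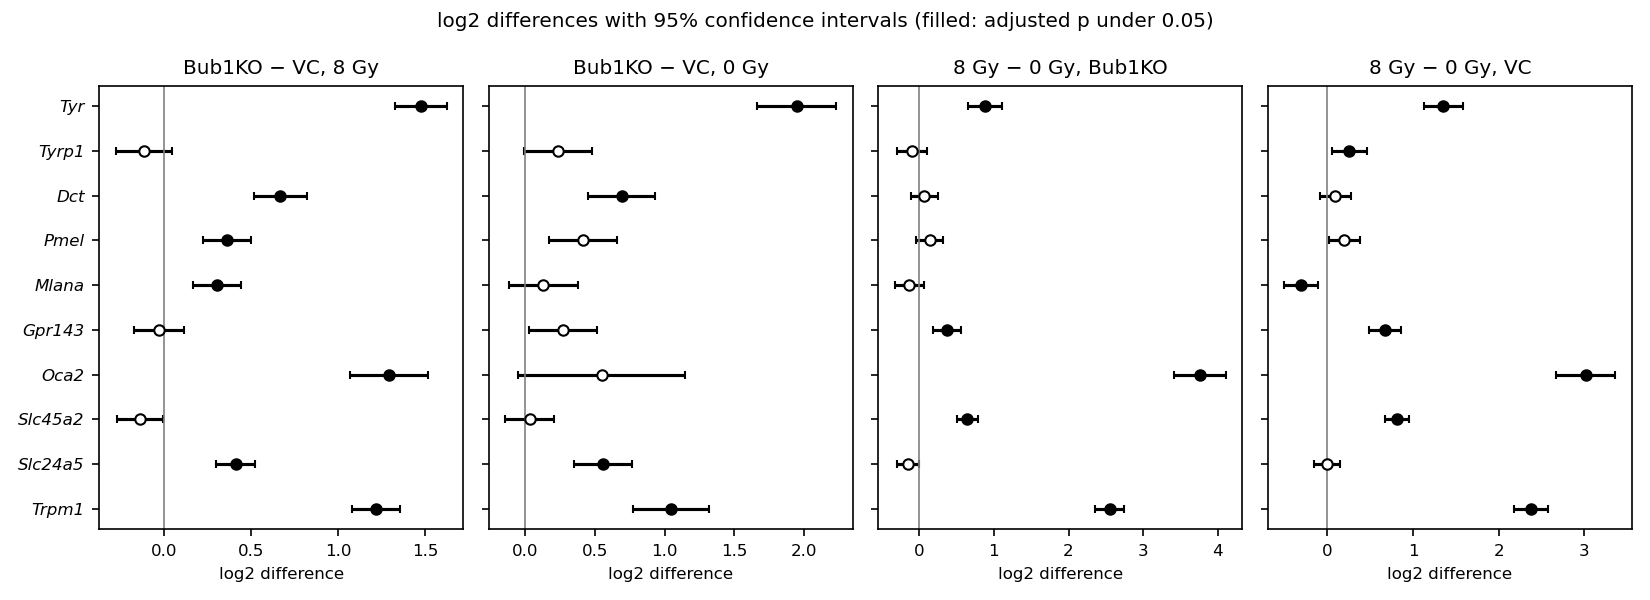
log2 differences of the 10 genes (points) with 95% confidence intervals (bars) for Bub1KO minus VC after 8 Gy and without it, and for 8 Gy minus no irradiation in Bub1KO and in VC; filled points have a limma adjusted p under 0.05 over 14721 genes. The x axes differ between panels: the largest genotype difference is 1.95 (Tyr, untreated) and the largest change with irradiation 3.76 (Oca2, Bub1KO).

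Tyr, the gene of the enzyme that starts melanin synthesis (GRCm38, chr7:87424771-87493512, minus strand, 5 exons in its longest coding transcript), differed most between the genotypes. It had 4338, 4435 and 5109 normalized counts in irradiated Bub1KO, against 1682, 1711 and 1583 in irradiated VC. In untreated cells it had 2946, 2406 and 2219 in Bub1KO, against 644, 713 and 592 in VC. The 4 groups did not overlap, and untreated Bub1KO lay above even irradiated VC. Tyr was 2.79-fold higher in irradiated Bub1KO than in irradiated VC (log2 difference 1.48, SE 0.0687, limma adjusted p = 2.07e-08) and 3.88-fold higher in untreated Bub1KO than in untreated VC (1.95, SE 0.126, limma adjusted p = 0.000147, or 1.83 with adjusted p = 7e-07 without replicate 1 of untreated Bub1KO). Irradiation raised it by 0.88 in Bub1KO (SE 0.106, limma adjusted p = 1.33e-05) and by 1.35 in VC (SE 0.106, limma adjusted p = 2.94e-07). Of the 10 genes Tyr and Dct, with Slc24a5, were among the most GC-poor of 4 equal GC bins of tested genes (Tyr transcript GC 35.2%), in which the median change with irradiation was -0.14 in Bub1KO and -0.15 in VC. With the GC trend removed Tyr differed by 1.53 after irradiation and 2.07 without it.

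Dct, the gene of dopachrome tautomerase (chr14:118012790-118052244, minus strand), took the most reads of the 10, before any account of length. Irradiated Bub1KO had 272283, 277523 and 257365 normalized counts of Dct, against 177640, 163338 and 166882 in irradiated VC. Untreated Bub1KO had 263105, 247361 and 258776, against 157458, 148445 and 170388 in untreated VC. Bub1KO and VC did not overlap under either treatment, and irradiated and untreated libraries overlapped within each genotype. The difference was 1.59-fold after irradiation (0.67, SE 0.0713, limma adjusted p = 2.62e-05) and 1.62-fold without it (0.69, SE 0.106, limma adjusted p = 0.00847). The untreated call was lost without replicate 1 or 2 of untreated VC (adjusted p = 0.0651 and 0.0950) and with no filter on low values (adjusted p = 0.711), and held without replicate 1 of untreated Bub1KO (0.67, adjusted p = 0.0014). With irradiation Dct changed by 0.07 in Bub1KO (95% interval -0.11 to 0.25, limma adjusted p = 0.519) and 0.09 in VC (-0.09 to 0.27, limma adjusted p = 0.362), short of the threshold in both. With the GC trend removed the change in VC was 0.28 and passed (adjusted p = 0.0279, or 0.0431 with the replicate block as well), and that in Bub1KO was 0.24 (adjusted p = 0.0567). The antisense gene 4930435M08Rik overlaps Dct and reached at most 44.1 normalized counts. The strand setting of the authors' counting is not given in the sources used here.

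Tyrp1, the gene of the third enzyme of the family (chr4:80834123-80851719, plus strand), passed the test in 1 of the 4 comparisons. It had 89317, 94425 and 107692 normalized counts in irradiated Bub1KO, against 102541, 106896 and 105556 in irradiated VC. Untreated Bub1KO had 112042, 103047 and 95777, against 88930, 94473 and 80673 in untreated VC. The genotypes overlapped after irradiation and did not overlap without it, where the test was not passed (0.24, 95% interval -0.01 to 0.48, limma adjusted p = 0.279). After irradiation the difference was -0.12 (95% interval -0.28 to 0.04, limma adjusted p = 0.259), so a genotype difference of the size seen for Dct lay outside the interval. Irradiation raised Tyrp1 in VC by 0.26 (SE 0.0931, limma adjusted p = 0.0316), a call lost without replicate 1 or 3 of untreated VC or any 1 of the irradiated VC libraries (adjusted p = 0.0579 to 0.121) and with no filter on low values (adjusted p = 0.139). The call held with the GC trend removed (0.41, limma adjusted p = 0.000459). It also held without replicate 1 of untreated Bub1KO in the shared fit (0.26, limma adjusted p = 0.0105).

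Pmel, the gene of the fibril protein of the early melanosome (chr10:128704195-128720238, plus strand), was higher in Bub1KO. It had 131941, 140929 and 132704 normalized counts in irradiated Bub1KO, against 108486, 103419 and 103722 in irradiated VC, and 108386, 130196 and 129944 in untreated Bub1KO, against 93398, 88955 and 92818 in untreated VC. The genotypes did not overlap under either treatment, and the lowest Bub1KO value was that of the library that stood apart. The difference passed the test after irradiation (0.36, SE 0.064, limma adjusted p = 0.00106), a call lost with no filter on low values (adjusted p = 0.0525). Without irradiation it was 0.42 (SE 0.108) and did not pass in the fit on the 6 untreated libraries (limma adjusted p = 0.0709). It passed with all 12 libraries in the fit (adjusted p = 0.00563), by DESeq2 (0.0155), with the GC trend removed (0.41, adjusted p = 0.012, or 0.0267 with the replicate block as well) and without replicate 1 of untreated Bub1KO (0.50, adjusted p = 0.00258). With irradiation Pmel changed by 0.14 in Bub1KO (95% interval -0.04 to 0.32, limma adjusted p = 0.178), where irradiated and untreated libraries did not overlap, and by 0.20 in VC (0.02 to 0.38, limma adjusted p = 0.0625). The VC change passed by DESeq2 (adjusted p = 0.0274), with the 6 VC libraries alone in the fit (0.0203) and without replicate 1 of untreated Bub1KO in the shared fit (0.0113). Pmel overlaps Cdk2 (up to 14300 normalized counts) and Dgka (up to 104) on the opposite strand.

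Mlana, the gene of MART-1, a small protein that binds PMEL in its maturation (chr19:29697824-29708634, plus strand), had 37402, 41779 and 39096 normalized counts in irradiated Bub1KO, against 33362, 30026 and 32499 in irradiated VC. In untreated cells it had 47910, 39200 and 42970 in Bub1KO, against 37419, 37851 and 43663 in VC. The genotypes separated after irradiation and overlapped without it. Mlana was 0.30 higher in irradiated Bub1KO (SE 0.0636, limma adjusted p = 0.00323, or 0.0699 with no filter on low values), with 0.13 in untreated cells (SE 0.110, limma adjusted p = 0.583). It was the only one of the 10 that fell with irradiation, in VC (-0.31, SE 0.0903, limma adjusted p = 0.0106). That call was lost without replicate 3 of untreated VC (adjusted p = 0.0524), without replicate 2 of irradiated VC (0.0506) and with the GC trend removed (0.0508). The change in Bub1KO was -0.13 (SE 0.0903, limma adjusted p = 0.238).

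Gpr143, the gene of the melanosome receptor mutated in ocular albinism (chrX:152781921-152808646, plus strand), had 1208, 1259 and 1225 normalized counts in irradiated Bub1KO, against 1216, 1356 and 1202 in irradiated VC. It had 1064, 915 and 881 in untreated Bub1KO, against 819, 729 and 819 in untreated VC. The genotypes overlapped after irradiation and not without it. Every irradiated library lay above every untreated one. Irradiation raised Gpr143 by 0.37 in Bub1KO (SE 0.0871, limma adjusted p = 0.00288) and by 0.67 in VC (SE 0.0871, limma adjusted p = 2.55e-05). The difference between genotypes was -0.03 after irradiation (95% interval -0.17 to 0.11, limma adjusted p = 0.772) and 0.27 without it (0.02 to 0.52, limma adjusted p = 0.215), which the authors' deposited table called at an adjusted p of 0.0456.

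Oca2, the gene of a melanosome membrane protein tied to an anion current that raises melanosome pH (chr7:56239760-56536518, plus strand), changed most with irradiation. Irradiated Bub1KO had 270.4, 276.1 and 270.0 normalized counts of Oca2, against 111.6, 104.4 and 115.8 in irradiated VC. Untreated Bub1KO had 18.3, 18.1 and 21.1, against 13.3, 10.3 and 15.1 in untreated VC. The 4 groups did not overlap, and the untreated VC values rest on as few as 8 reads. Oca2 was 14.2-fold higher in irradiated than in untreated Bub1KO (log2 change 3.76, SE 0.161, limma adjusted p = 1.44e-09) and 8.57-fold higher in irradiated than in untreated VC (3.02, SE 0.161, limma adjusted p = 1.13e-08). Between genotypes it was 2.46-fold higher in Bub1KO after irradiation (1.29, SE 0.104, limma adjusted p = 2.79e-06), and the untreated difference did not pass (0.55, SE 0.264, limma adjusted p = 0.302; 0.58, adjusted p = 0.230, without replicate 1 of untreated Bub1KO; adjusted p = 0.0412 with all 12 libraries in the fit). With a pseudocount of 1 the log2 change of a gene at these counts is understated.

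Slc45a2, the gene of a melanosome sugar and proton transporter (chr15:11000721-11029233, plus strand), passed the test with irradiation in both genotypes. It had 19243, 20766 and 22031 normalized counts in irradiated Bub1KO, against 22855, 23452 and 21934 in irradiated VC, and 13099, 13507 and 13077 in untreated Bub1KO, against 13053, 13144 and 12605 in untreated VC. The genotypes overlapped under both treatments, and all irradiated libraries lay above all untreated ones. Irradiation raised it by 0.64 in Bub1KO (SE 0.0656, limma adjusted p = 3.13e-06) and by 0.81 in VC (SE 0.0656, limma adjusted p = 3.74e-07). The untreated difference between genotypes was 0.03 (95% interval -0.14 to 0.21, limma adjusted p = 0.871). After irradiation it was -0.14 (-0.27 to -0.01, limma adjusted p = 0.104), and Slc45a2 then passed as lower in Bub1KO without replicate 3 of irradiated Bub1KO (-0.19, adjusted p = 0.0408) or with the GC trend removed (-0.18, adjusted p = 0.0261).

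Slc24a5, the gene of a potassium-dependent sodium/calcium exchanger (chr2:125068124-125088677, plus strand), passed the test between genotypes under both treatments. It had 15570, 15845 and 16379 normalized counts in irradiated Bub1KO, against 12049, 11971 and 11912 in irradiated VC. In untreated cells it had 19425, 17347 and 16376 in Bub1KO, against 12465, 11862 and 11641 in VC. The genotypes did not overlap under either treatment. Slc24a5 was 0.41 higher in irradiated Bub1KO (SE 0.0511, limma adjusted p = 8.44e-05) and 0.56 higher in untreated Bub1KO (SE 0.0926, limma adjusted p = 0.0115; 0.49, adjusted p = 0.00114, without replicate 1 of untreated Bub1KO). The untreated call was lost without any 1 of the 3 untreated VC libraries (adjusted p = 0.0611 to 0.0845) and with no filter on low values (adjusted p = 0.0765). With irradiation it changed by -0.15 in Bub1KO (95% interval -0.30 to -0.0002, limma adjusted p = 0.0898) and by -0.0009 in VC (-0.15 to 0.15, limma adjusted p = 0.992). The change with irradiation passed in VC, as a rise, with the GC trend removed (0.16, adjusted p = 0.0188, or 0.0293 with the replicate block as well), and in Bub1KO, as a fall, without replicate 3 of untreated Bub1KO (-0.20, adjusted p = 0.0347). The gene overlaps Myef2 on the opposite strand, which reached 4645 normalized counts.

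Trpm1, a cation channel gene whose intron holds Mir211 (chr7:64153835-64269775, plus strand), passed the test in all 4 comparisons. It had 3658, 4010 and 3541 normalized counts in irradiated Bub1KO, against 1666, 1540 and 1605 in irradiated VC. In untreated cells it had 667, 623 and 620 in Bub1KO, against 327, 266 and 335 in VC. The 4 groups did not overlap. Trpm1 was 2.33-fold higher in irradiated Bub1KO than in irradiated VC (1.22, SE 0.0631, limma adjusted p = 3.67e-08) and 2.06-fold higher in untreated Bub1KO than in untreated VC (1.05, SE 0.121, limma adjusted p = 0.0022; 1.01, adjusted p = 0.000327, without replicate 1 of untreated Bub1KO). Irradiation raised it 5.87-fold in Bub1KO (2.55, SE 0.0919, limma adjusted p = 3.55e-10) and 5.18-fold in VC (2.38, SE 0.0919, limma adjusted p = 6.06e-10). Mir211, counted as its own gene on the same strand as Trpm1, reached at most 6.19 normalized counts. That count was not taken as a level of the mature microRNA.

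**Figure D4:**
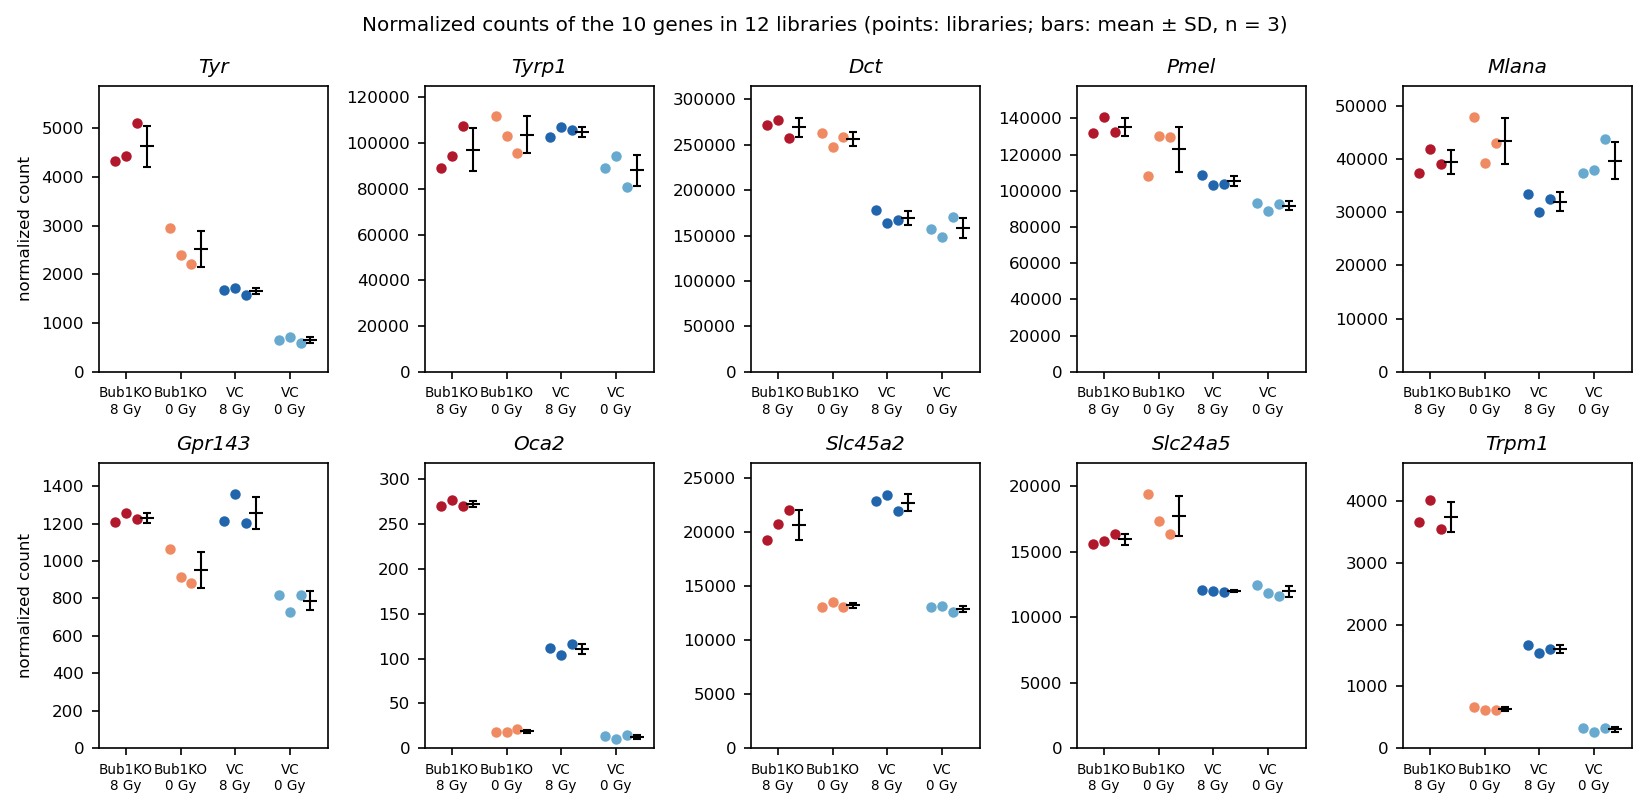
Normalized count of each gene (y axes, linear and starting at 0) in every library (points) by group, with the mean ± SD of 3 libraries (bars). The groups of Tyr, Oca2 and Trpm1 are separate, Dct, Pmel and Slc24a5 separate by genotype within each treatment, and Slc45a2 and Gpr143 separate by irradiation.

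The difference between the genotypes in their response to irradiation (the interaction) passed the adjusted threshold for 0 of the 10 genes by limma, by edgeR and by DESeq2, where limma called 0.136% of all tested genes as positive and 0.414% as negative. At an unadjusted p under 0.05 limma had 4 of 10: Tyr (-0.47, SE 0.150, adjusted p = 0.206), Tyrp1 (-0.35, SE 0.132, adjusted p = 0.285), Gpr143 (-0.30, SE 0.123, adjusted p = 0.340) and Oca2 (0.74, SE 0.227, adjusted p = 0.186). At that unadjusted cut limma had 1784 of all 14721 tested genes. For the other 6 genes the value lay between -0.17 and 0.17. The Tyr interaction passed with the GC trend removed (-0.54, adjusted p = 0.0288, or 0.0423 with the replicate block as well) and was -0.36 (adjusted p = 0.0686) without replicate 1 of untreated Bub1KO, and that of Oca2 passed with a pseudocount of 8 (0.86, adjusted p = 0.0487). Over all alternatives the adjusted p ranged from 0.0288 to 0.436 for Tyr and from 0.0487 to 0.424 for Oca2.

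The 10 genes differ in size and base content. Tyr (68.7 kb), Oca2 (297 kb) and Trpm1 (116 kb), the 3 genes with the largest changes, lie in the longest of 4 equal length bins of tested genes (45.8 kb and above), in which the median change with irradiation was -0.03 in Bub1KO and -0.02 in VC. None of the 10 lies in the most GC-rich of 4 GC bins, whose median change with irradiation was 0.26 in Bub1KO and 0.33 in VC, against -0.14 and -0.15 in the most GC-poor. With the GC trend removed the change with irradiation was 3.85 in Bub1KO and 3.13 in VC for Oca2, 2.53 and 2.39 for Trpm1 and 1.01 and 1.54 for Tyr, all still past the threshold.

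Over the 12 libraries, the log2 values of the genes fell into patterns that are described here with no test, because the libraries share 4 group means and a common scaling. Oca2, Trpm1, Gpr143 and Slc45a2 correlated with each other at Pearson r of 0.85 to 0.98, and Dct correlated with Slc24a5 at 0.92, with Pmel at 0.90 and with Tyr at 0.87. Dct and Slc45a2 were nearly unrelated (0.04), Mlana ran against Slc45a2 (-0.67), and Tyr was related to both patterns (0.90 with Pmel and 0.83 with Trpm1). Tyr and Tyrp1, the genes that share the 11-base promoter word, correlated at 0.49.

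**Figure D5:**
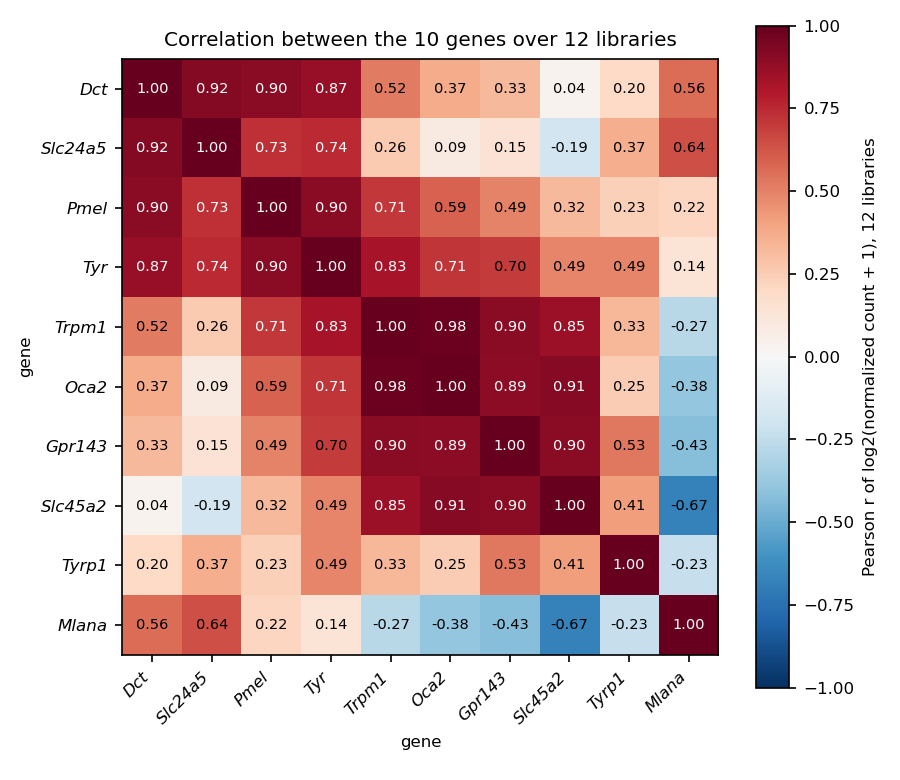
Pearson r between each pair of the 10 genes (both axes) over log2(normalized count + 1) in 12 libraries, coloured from -1 to 1. Dct, Slc24a5, Pmel and Tyr form one block of high values and Trpm1, Oca2, Gpr143 and Slc45a2 another, with 0.98 between Trpm1 and Oca2.

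Among all tested genes the 5 most like Tyr over the 12 libraries were Mgst1 (Pearson r 0.988), Gjb2, Gm44250, Hpse and Gm26684 (0.981). The 5 most like Dct were Dnah6 (0.989), Bace2 (0.977), Crabp2, Katnal2 and Fabp7 (0.970), and the 5 most like Trpm1 were Smim14 (0.996), Ifi27 (0.995), Tmem192, Gm20559 and Fez1 (0.994). None of the 5 most like any of the 10 genes was itself one of the 10. Of the lineage regulators listed below, Mitf was the gene most like Tyrp1 (0.916), and Bhlhe41 was 2nd for Slc24a5 (0.960). Neither was among the 5 most like any other of the 10 genes. Stom (0.996), Ddx58 (0.994), Ifitm3 (0.993) and Mx2 (0.992), named after their values were seen, were the 4 most like Oca2. Their likeness, like that of the others, rests largely on 4 group means.

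Of the known regulators, Mitf had 11527, 11119 and 12515 normalized counts in irradiated Bub1KO, against 12694, 13333 and 11884 in irradiated VC, and 13345, 12590 and 11575 in untreated Bub1KO, against 10704, 10802 and 9977 in untreated VC. Every untreated Bub1KO library lay above every untreated VC library in Mitf, the irradiated genotypes overlapped, and neither difference passed the test (-0.11, SE 0.0626, limma adjusted p = 0.209 after irradiation; 0.25, SE 0.0890, limma adjusted p = 0.166 without it). Irradiation raised it in VC by 0.27 (SE 0.0756, limma adjusted p = 0.0087), with -0.09 in Bub1KO (SE 0.0756, limma adjusted p = 0.331). The difference of these responses was -0.36 (SE 0.107, limma adjusted p = 0.175), and -0.31 (limma adjusted p = 0.0499) without replicate 1 of untreated Bub1KO. Sox10 rose with irradiation in VC (0.67, SE 0.196, limma adjusted p = 0.0109) and did not pass the test between genotypes. That difference was -0.24 after irradiation (SE 0.0956, limma adjusted p = 0.0695) and 0.09 in untreated cells (SE 0.222, limma adjusted p = 0.878). For Sox10 replicate 1 of untreated Bub1KO held 4355 where the other 2 held 8090 and 8313. Without that library Sox10 passed as higher in untreated Bub1KO (0.39, SE 0.0846, limma adjusted p = 0.00954), with an interaction of -0.64 (limma adjusted p = 0.0119).

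Mc1r, the melanocortin receptor gene, was 0.26 higher in irradiated Bub1KO (SE 0.0655, limma adjusted p = 0.0088), with 0.42 in untreated cells (SE 0.108, limma adjusted p = 0.0686; 0.52, adjusted p = 0.00162, without replicate 1 of untreated Bub1KO), and rose with irradiation by 0.34 in Bub1KO (SE 0.0929, limma adjusted p = 0.00708) and 0.50 in VC (SE 0.0929, limma adjusted p = 0.000473). Pax3 fell with irradiation in Bub1KO (-0.32, SE 0.0785, limma adjusted p = 0.00376) and in VC (-0.31, SE 0.0785, limma adjusted p = 0.00446). Tfap2a, an AP-2 transcription factor gene, was lower in irradiated Bub1KO (-0.32, SE 0.0718, limma adjusted p = 0.00462). The untreated difference did not pass (0.14, SE 0.0894, limma adjusted p = 0.447). Tfap2a fell with irradiation in Bub1KO (-0.59, SE 0.0822, limma adjusted p = 5.08e-05), with -0.13 in VC (SE 0.0822, limma adjusted p = 0.208). Its interaction was -0.46 (limma adjusted p = 0.112), and -0.50 (limma adjusted p = 0.00754) without replicate 1 of untreated Bub1KO. Irf4 had 1.02 to 10.1 normalized counts and was not tested. The counts of the wider lists are set against the shares of all tested genes that rose and fell, which were 14.3% and 16.4% in irradiated Bub1KO against VC, 2.31% and 1.71% in untreated Bub1KO against VC, 25.4% and 23.9% with irradiation in Bub1KO, and 27.6% and 25.8% with irradiation in VC. In the whole list of 28 lineage regulators 21 were tested: 4 rose (19.0%) and 4 fell (19.0%) in irradiated Bub1KO against VC, and 1 rose (4.76%) and 0 fell in untreated Bub1KO (Bhlhe41, 0.65, SE 0.0987, limma adjusted p = 0.00816). With irradiation 3 rose (14.3%) and 6 fell (28.6%) in Bub1KO, and 8 rose (38.1%) and 5 fell (23.8%) in VC. No difference of these list shares from those of all tested genes was tested. Sox9 rose most with irradiation, by 1.77 in Bub1KO (SE 0.291, limma adjusted p = 0.000208) and 2.86 in VC (SE 0.291, limma adjusted p = 3.03e-06).

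The genes that build melanosomes and sort their cargo (33 tested of 34, among them the BLOC, HPS, AP and Rab genes) were followed for comparison. In irradiated Bub1KO 7 of 33 rose (21.2%) and 2 fell (6.06%), with a list median of -0.01, and in untreated Bub1KO 1 rose (3.03%) and 0 fell, with a median of 0.07. That gene was Bace2, a protease that cuts PMEL, at 12560 ± 897 normalized counts in untreated Bub1KO and 7748 ± 483 in untreated VC (SD, n = 3 each; 0.70, SE 0.0916, limma adjusted p = 0.0044), and it was 0.47 higher after irradiation (SE 0.0585, limma adjusted p = 8.82e-05). With irradiation 8 rose (24.2%) and 5 fell (15.2%) in Bub1KO, and 11 rose (33.3%) and 7 fell (21.2%) in VC. Gpnmb, a glycoprotein gene related to Pmel, rose to 170090 normalized counts in irradiated Bub1KO, against 76517 in untreated Bub1KO (1.16, SE 0.0954, limma adjusted p = 4.53e-07), and to 174723 in irradiated VC, against 65438 in untreated VC (1.42, SE 0.0954, limma adjusted p = 8.43e-08). Rab32, which helps deliver enzymes to melanosomes, fell with irradiation in Bub1KO (-0.62, SE 0.0701, limma adjusted p = 8.12e-06) and in VC (-0.27, SE 0.0701, limma adjusted p = 0.00518).

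Of 16 tested genes for melanosome ions, copper and cysteine, 3 rose (18.8%) and 1 fell (6.25%) in irradiated Bub1KO, and 2 rose (12.5%) and 0 fell in untreated Bub1KO: Slc7a11, the cystine carrier (0.94, SE 0.167, limma adjusted p = 0.0163), and Slc9a9, a sodium/proton exchanger (0.69, SE 0.119, limma adjusted p = 0.0137). With irradiation 6 rose (37.5%) and 3 fell (18.8%) in Bub1KO, and 6 rose (37.5%) and 2 fell (12.5%) in VC, with Mfsd12, a cysteine importer of melanosomes, up by 0.92 in Bub1KO (SE 0.213, limma adjusted p = 0.00272) and by 1.11 in VC (SE 0.213, limma adjusted p = 0.000653). Slc31a1, the copper importer, fell in Bub1KO (-0.43, SE 0.0779, limma adjusted p = 0.000473) and in VC (-0.54, SE 0.0779, limma adjusted p = 6.85e-05).

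Of 11 tested genes of melanosome transport, 1 rose (9.09%) and 3 fell (27.3%) in irradiated Bub1KO, and 1 rose (9.09%) and 0 fell in untreated Bub1KO. The gene that rose in untreated cells was Rab27a, whose product ties melanosomes to the actin motor myosin Va: it had 5919, 5897 and 6291 normalized counts in irradiated Bub1KO, against 5495, 5541 and 5351 in irradiated VC, and 5805, 5423 and 5149 in untreated Bub1KO, against 3401, 3470 and 3309 in untreated VC. Untreated VC alone was low. Its interaction of -0.54 (SE 0.0896, limma adjusted p = 0.014) was the only one called among the genes of these pigment lists with all libraries (-0.50, adjusted p = 0.00104, without replicate 1 of untreated Bub1KO). With irradiation 3 rose (27.3%) and 2 fell (18.2%) in Bub1KO, and 5 rose (45.5%) and 2 fell (18.2%) in VC, with Rab17 up by 2.05 in Bub1KO (SE 0.217, limma adjusted p = 4.43e-06) and 1.73 in VC (SE 0.217, limma adjusted p = 1.95e-05). Of 8 tested genes that handle melanin by-products and quinones, 4 rose and 0 fell in irradiated Bub1KO and 1 rose (12.5%) in untreated Bub1KO, the quinone reductase gene Nqo1 (0.61, SE 0.100, limma adjusted p = 0.0109), which was 0.44 higher after irradiation (SE 0.109, limma adjusted p = 0.00824). Nqo1 fell with irradiation in Bub1KO (-0.87, SE 0.102, limma adjusted p = 1.09e-05) and in VC (-0.70, SE 0.102, limma adjusted p = 7.2e-05), the 1 gene of the list that fell (12.5%), while 3 rose (37.5%) in each genotype. Gch1, the first enzyme of tetrahydrobiopterin synthesis, rose by 2.65 in Bub1KO (SE 0.262, limma adjusted p = 2.41e-06) and by 2.50 in VC (SE 0.262, limma adjusted p = 3.82e-06).

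Replicate 1 of untreated Bub1KO moved the counts of these wider lists. Without it, among untreated cells, 7 of 33 melanosome biogenesis genes rose and 1 fell in Bub1KO, where 1 and 0 did with all libraries. Of the 16 ion, copper and cysteine genes 7 rose and 0 fell without it, of the 21 lineage regulators 4 rose and 2 fell, of the 11 transport genes 3 rose and 1 fell, and of the 8 by-product genes 3 rose and 0 fell, while 18.6% of all tested genes were called. In the interaction 1 biogenesis gene was positive and 4 were negative without it, beside 6 negative regulators, 2 transport genes, 2 by-product genes and 1 ion gene, against 0 of the 10 pigment genes and 9.83% of all tested genes in either direction. The untreated differences named above all kept their call without it: Bace2 (0.64, limma adjusted p = 0.000285), Bhlhe41 (0.58, limma adjusted p = 0.000774), Slc7a11 (0.83, limma adjusted p = 0.00406), Slc9a9 (0.68, limma adjusted p = 0.0039), Rab27a (0.64, limma adjusted p = 0.000168) and Nqo1 (0.61, limma adjusted p = 0.0021).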

How the data were processed

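RNA-seq libraries of B16F10 cells (4 groups of 3) were made from total RNA with a stranded kit after ribosomal RNA removal, per the labels' protocols. The submitters' processing notes name STAR, HTSeq, SAMtools, cutadapt and Trim Galore and the builds GRCm38.p6 and mm10, without versions, roles or strand setting. The authors deposited 2 tables, each for 1 treatment, whose sample columns hold a signal, the read count divided by 1 size factor per library. Per the file headers, columns of the authors' own test follow: a log2 fold change (VC divided by Bub1KO), its standard error, a score, p-values and adjusted p-values. Dividing by the smallest step gave whole reads for 100% of values (tolerance 0.01 of a read), and both tables share 1 normalization.

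Values were tested with limma 3.58.1 (limma-trend, R 4.3.3) on log2(value + 1). A gene was tested when 3 or more of 12 libraries reached a value of 10, which left 14721 genes, with Benjamini-Hochberg adjustment over all of them. Genotypes were compared on the 6 libraries of a treatment, and irradiation and the interaction on all 12, with no covariates. Alternatives were edgeR 4.0.16 and DESeq2 1.42.0 on the recovered reads, TMM scaling, pseudocounts of 0.5 and 8, no filter, other libraries in the fit, a replicate block, removal of a GC trend, and leaving out each library. The tests were tried on simulated data first. Per-kb levels and positions use GENCODE M21 (GRCm38), which matched 54587 of 55421 identifiers with their version. The members, gene lists and tests were chosen with earlier results of these data known. Named genes are all members, Bub1, Mitf, Sox10, Pax3, Tfap2a, Irf4 and Mc1r, and up to 3 genes with the smallest p per list, comparison and direction. Binomial intervals and counts cover counting error only, since reads without molecular identifiers are not independent molecules. The labels give no batch.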

Additional observations from a re-analysis of the deposited data

How the results depend on the processing

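Of 970 single-gene values under alternatives, 920 kept their direction and side of the threshold, 17 newly passed and 19 no longer passed in the same direction, and 14 changed sign, 2 of which newly passed. Tyr and Trpm1 kept their calls in all 4 comparisons under every alternative run. The share of all tested genes called in either direction under the same setting is given in brackets. In untreated cells 4 of 10 genes were called (4.01%), 2 with no filter (1.09%) and 6 with all 12 libraries in the fit (12.02%). The count was 5 by DESeq2 (5.79%) and with the GC trend removed (10.83%), and 2 to 5 when a library was left out (1.17% to 18.59%). In irradiated cells 7 were called (30.65%), but 5 with no filter (6.81%). The count was 8 with the GC trend removed (33.9%) or without replicate 3 of irradiated Bub1KO (32.23%). In both, Slc45a2 was called as lower in Bub1KO. In the interaction 0 were called (0.55%), but 1 with a pseudocount of 8 (0.686%). With the GC trend removed 1 was called (Tyr, 2.31%), as with the replicate block as well (1.49%). Sign changes concerned Gpr143 between irradiated genotypes (-0.0614 to 0.0253 leaving out a library), Tyrp1 (0.0371) and Slc24a5 (0.00653) with irradiation in Bub1KO with the GC trend removed, with or without the block, Slc24a5 in VC (0.000563 by DESeq2, 0.165 with the GC trend removed, with or without the block, which passed at adjusted p = 0.0293 and 0.0188, -0.0218 to 0.0275 leaving out a library) and the Dct interaction (0.00512 by edgeR, -0.0769 to 0.0225 leaving out a library). The cause was not tested. The replicate block left the counts at 4, 7, 5, 7 and 0, where 2.12%, 28.3%, 47.3%, 51.5% and 0.319% of all tested genes passed. Deviations of same-numbered libraries from their group means had correlations of -0.19 to 0.05, and those of other pairs -0.15 to 0.15. With 3 libraries per group this cannot show whether same-numbered libraries were prepared together. Over all genes, calls in untreated cells ranged from 172 to 2736 (591 as reported), in irradiated cells from 2062 to 4990 (4512) and in the interaction from 33 to 1447 (81). With irradiation they ranged from 6135 to 7852 in Bub1KO (7269) and from 6733 to 9025 in VC (7861). Of the single-gene values with irradiation in VC, 200 stayed the same and 10 no longer passed. There 5 newly passed in the same direction and 5 changed sign. Depth limits Oca2, with as few as 8 reads.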
